A study of Mus musculus with 6 samples.

Results

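The 5 genes described here encode the inhibitors of matrix-degrading metalloproteinases that are made by connective tissue cells: Timp1, Timp2, Timp3, Timp4 and Reck. They were chosen by symbol, and each symbol matched 1 of the 55536 gene identifiers counted in the study. TIMP proteins are small secreted inhibitors that fit into the active site of matrix metalloproteinases, with TIMP3 also blocking several ADAM and ADAMTS enzymes and staying bound to the extracellular matrix. TIMP2 has a further role, since together with the membrane protease MMP14 it brings proMMP2 to the cell surface for activation. RECK is held in the plasma membrane by a lipid anchor, restrains MMP2, MMP9, MMP14 and ADAM10, and serves with the receptor ADGRA2 in signalling by WNT7 ligands. In fibrosing tissue the balance between these inhibitors and the proteases sets how fast collagen is turned over.

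The cells were stroma of mouse quadriceps after volumetric muscle loss surgery, gated as CD45-CD31-CD29+ and divided by a tdTomato p16 reporter carried on C57Bl/6 by all animals. RNA-seq was made from 3 tdTomato-positive (p16+) and 3 tdTomato-negative (p16-) samples, without any further genotype in the labels. The protocol has surgery at 10 weeks of age, a defect filled with 30 mg of polycaprolactone particles, matrix freed of cells (decellularized), or 50 uL saline alone, and tissue taken 1 or 6 weeks later. The labels of the 6 samples do not state filler, time or animal, so a difference in these between the groups cannot be told apart from p16 status. The p-values measure the spread between these samples, which may be technical.

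Library totals were 35253406 to 39103909 counts. Cdkn2a, the gene that holds p16, had 7.82 ± 0.961 CPM (counts relative to the TMM-scaled library size) in the p16+ libraries, against 2.13 ± 0.329 CPM for p16- (SD, n = 3 per group), from a count over the whole gene that does not separate the p16 transcript from the Arf transcript of the same locus. Defining fibroblast genes were abundant in both groups, with the receptor gene Pdgfra at 866 and 1018 CPM and the proteoglycan gene Dcn at 7884 and 8744 CPM in p16+ and p16-. On the second principal component of log2 CPM, with 18.0% of the variance, p16+ replicates 2 and 3 lay far apart, at 38.3 and -46.6. Of 15903 genes tested with edgeR's quasi-likelihood test, 16.7% passed a Benjamini-Hochberg threshold of 0.05, 8.69% higher and 8.04% lower in p16+. The log2 CPM of the 2 groups did not overlap for 33.1%.

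The 5 genes did not move together. In p16+ cells Timp1 was 2.65-fold higher, while Reck, Timp3 and Timp2 were lower by 38%, 32% and 16%. Timp4 was low in both groups, at 0.404 to 0.806 CPM. All 5 passed the filter on low counts, and 4 passed the test, 1 higher and 3 lower, beside 16.7% of all genes tested; the same 4 had groups that did not overlap, beside 33.1% of all. In bulk samples, fewer cells that express a gene and less RNA of it per cell cannot be told apart.

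The start regions of Timp1 and Reck, the member that rose and the one that fell most, are shown here because they differ in base composition. The sequences are the 250 bases before the RefSeq start (GRCm38.p6), 5′ to 3′ on the gene's strand, with matches to the Sp1 motif GGGCGG on either strand in capitals. Timp1 lies at chrX:20869916-20870165 (plus strand) and Reck at chr4:43875280-43875529 (plus strand).
Timp1: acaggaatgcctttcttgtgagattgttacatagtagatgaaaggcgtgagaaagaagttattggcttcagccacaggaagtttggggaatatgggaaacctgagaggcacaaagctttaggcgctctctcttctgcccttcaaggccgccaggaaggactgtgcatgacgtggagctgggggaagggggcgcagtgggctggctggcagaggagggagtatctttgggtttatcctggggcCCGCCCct
Reck: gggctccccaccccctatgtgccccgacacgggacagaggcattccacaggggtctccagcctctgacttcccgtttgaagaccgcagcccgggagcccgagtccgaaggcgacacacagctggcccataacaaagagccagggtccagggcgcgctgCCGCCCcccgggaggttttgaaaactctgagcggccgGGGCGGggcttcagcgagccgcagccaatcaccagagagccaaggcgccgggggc

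The Timp1 region held 6 CpG dinucleotides and 54.4% G and C, close to the medians of 6 and 52.4% over the 32851 promoters of the same table. The 3 genes that were lower in p16+ had CpG-rich start regions, with 19 CpG and 68.4% G and C for Reck, 21 and 68.0% for Timp2, and 18 and 65.6% for Timp3. Timp4 held 2 CpG and 53.6% G and C. The Sp1 letters occurred in the 250 bases of Timp1, Timp2, Timp3 and Reck and in 32.7% of all promoters of this length. None of the 5 regions held the AP-1 motif TGANTCA, the STAT motif TTCNNNGAA, the TATA box TATAAA or the RUNX motif TGTGGT, which were found in 6.75%, 7.02%, 12.4% and 14.0% of all. The AP-1 variant TGAGTAA, known from the Timp1 promoter and searched for after the sequence was seen, lay 27 to 33 bases into the annotated first exon. It is in capitals in this stretch of 30 bases (chrX:20870182-20870211, plus strand).
Timp1 site: ggtgggtggaTGAGTAAtgcgtccaggaag
This variant was absent from the same window of the other 4 genes and present in 2.68% of all windows of 250 bases before to 50 after the start. A match is a description of letters and was not tested as a binding site.

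Timp1 (ENSMUSG00000001131.11, chromosome X, 20870166 to 20874735, plus strand, GRCm38) encodes the inducible inhibitor of the family, which also binds the tetraspanin CD63. Its level was 502, 578 and 542 CPM in the 3 p16+ libraries and 196, 233 and 182 CPM in the 3 p16- libraries. The lowest p16+ library lay above the highest p16- library, with no overlap. The log2 fold change was 1.41 (SE 0.10, 95% interval 1.20 to 1.61, adjusted p = 1.59e-07 by edgeR), which lay above 98.2% of all genes tested. Exact permutation of the log2 CPM values gave a two-sided p of 0.1, the smallest that 3 against 3 libraries allow, as it also was for Timp2, Timp3 and Reck.

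Reck (ENSMUSG00000028476.13, chromosome 4, 43875530 to 43944806, plus strand) encodes the membrane-anchored inhibitor. It was measured at 62.2, 64.4 and 67.9 CPM in p16+ and at 107, 103 and 104 CPM in p16-. These were the tightest replicates of the family, with a coefficient of variation of 4.4% and 2.33%, and the groups did not overlap. Reck fell by 0.69 on the log2 scale (SE 0.07, 95% interval -0.85 to -0.53, adjusted p = 7.11e-06 by edgeR).

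Timp3 (ENSMUSG00000020044.13, chromosome 10, 86300372 to 86349506, plus strand) encodes the matrix-bound inhibitor of ADAM17 and of the aggrecanases ADAMTS4 and ADAMTS5. Its levels were 308, 282 and 290.2 CPM in p16+ and 384, 436 and 471 CPM in p16-. All p16+ libraries lay below all p16- libraries. Timp3 fell by 0.55 on the log2 scale (SE 0.09, 95% interval -0.74 to -0.37, adjusted p = 0.000273 by edgeR).

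Timp2 (ENSMUSG00000017466.9, chromosome 11, 118301069 to 118355740, minus strand) encodes the inhibitor that takes part in proMMP2 activation. It was the most abundant member by count and stood 29th among all genes tested by mean CPM, at 2699, 2438 and 2578 CPM in p16+ and 2870, 3115 and 3217 CPM in p16-. The groups did not overlap, but p16+ replicate 1 and p16- replicate 1 were close. The log2 fold change was -0.25 (SE 0.08, 95% interval -0.42 to -0.08, adjusted p = 0.0399 by edgeR). This call was lost in 5 of 6 fits with 1 library left out, with an adjusted p of 0.0554, 0.2 and 0.133 without p16+ replicates 1, 2 and 3, and of 0.0742 and 0.2 without p16- replicates 2 and 3. It was kept without p16- replicate 1 (adjusted p = 0.00391), and the log2 fold change stayed between -0.30 and -0.22 in these 6 fits.

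Timp4 (ENSMUSG00000030317.8, chromosome 6, 115241892 to 115252205, minus strand) encodes the most tissue-restricted TIMP, known mainly from heart, brain and fat. The p16+ libraries held 24, 27 and 20 counts of it and the p16- libraries 32, 16 and 30, or 0.404 to 0.806 CPM. By the library totals without TMM scaling, 3 counts in a library correspond to 0.0767 to 0.0851 CPM. The groups overlapped. The log2 fold change was -0.01 with a 95% interval from -1.25 to 1.23 (adjusted p = 0.994 by edgeR), so a difference smaller than these bounds was not detectable at this depth.

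**Figure D1:**
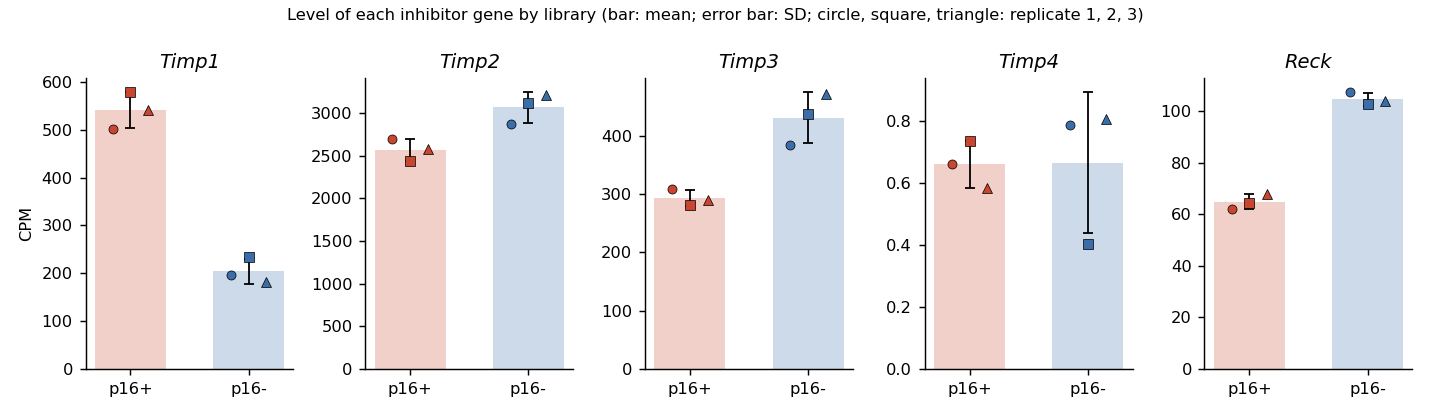
Level in CPM of each of the 5 inhibitor genes (1 panel each, linear axis from 0) in the 3 p16+ (red) and 3 p16- (blue) libraries; bars are means, error bars SD, and symbols mark replicates. Timp1 is higher in every p16+ library, Reck, Timp3 and Timp2 are lower, and Timp4 stays below 1 CPM with overlapping groups.

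**Figure D2:**
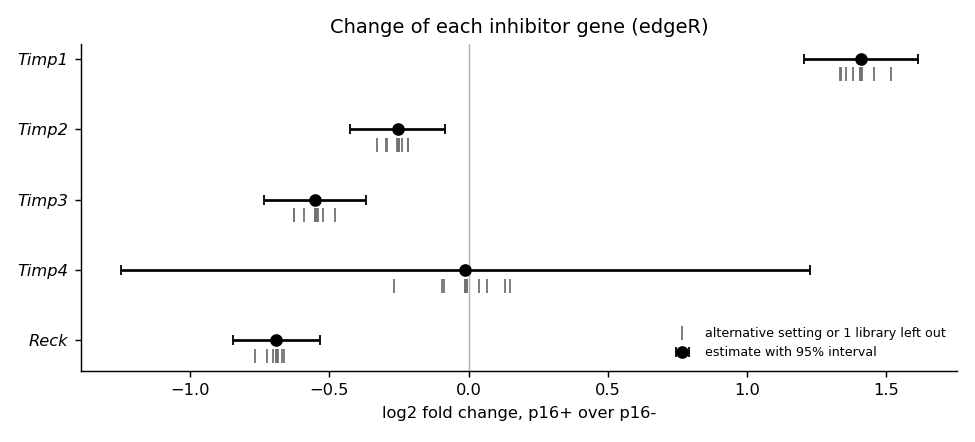
Log2 fold change of p16+ over p16- for each inhibitor gene, with its 95% interval (black) and the values under the alternative settings and with 1 library left out (grey ticks). Timp1 lies at 1.41, Reck, Timp3 and Timp2 at -0.69, -0.55 and -0.25, and the interval of Timp4 spans 0.

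Several members lie inside other genes, which bears on counts made without strand. Timp1 lies within the span of the synapsin gene Syn1, Timp4 within Syn2 and Timp3 within Syn3, each on the opposite strand. Timp1 shares 0 exonic bases with Syn1, and Timp4 shares 90, or 1.53% of its exonic length, with Syn2. Timp3 shares 1733 exonic bases with Syn3, which is 21.3% of its 8144 exonic bases and 36.7% of its principal transcript of 4722 bases. Under the default settings of the counting program, fragments that touch exons of both genes are not counted, so the level of Timp3 is a lower bound in both groups. Syn3, a neuronal vesicle protein gene, had 8, 0 and 8 counts in p16+ and 68, 40 and 29 in p16-, and also passed the test (log2 fold change -2.91, SE 0.82, adjusted p = 0.0218 by edgeR, and 0.111 without p16- replicate 1). Timp3 itself had 9940 to 17524 counts a library. Syn1 had 1.28 and 2.13 CPM (adjusted p = 0.209) and Syn2 0.252 and 0.412 CPM (adjusted p = 0.617) in p16+ and p16-. The other genes within these spans share no exonic base with a member: Cep295nl lies inside Timp2 and had 72 to 140 counts, Gm27265 inside Reck had 0 to 8, and Gm17482, which overlaps Timp4, had none.

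Levels between genes were compared per length, as RPKM (CPM divided by the exonic length in kilobases). In p16- cells the order was the same in each library: Timp2 at 787 ± 45.7, Timp1 at 229 ± 29.6, Timp3 at 52.8 ± 5.39, Reck at 21.9 ± 0.509 and Timp4 at 0.113 ± 0.0385 RPKM (SD, n = 3). In p16+ cells Timp2 was at 660 ± 33.6 and Timp1 at 609 ± 42.5 RPKM, and these neighbours did not differ beyond their spread: Timp1 exceeded Timp2 in replicate 2, at 651 against 626 RPKM, and lay below it in replicates 1 and 3. Timp3 followed at 36.0 ± 1.66, Reck at 13.6 ± 0.597 and Timp4 at 0.112 ± 0.0128 RPKM.

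The family's make-up therefore differed between the groups. Timp1 supplied 43.2%, 49.1% and 46.1% of the summed RPKM of the 5 genes in the p16+ libraries and 21.5%, 23.1% and 18.5% in the p16- libraries. Timp2 supplied 47.2% to 52.9% in p16+ and 70.3% to 74.3% in p16-. Timp3 took 2.73% and 4.84%, Reck 1.03% and 2.01%, and Timp4 0.00849% and 0.0104% on average in p16+ and p16-. The sum itself was 1319 ± 8.02 RPKM in p16+ and 1091 ± 57.6 RPKM in p16- (SD, n = 3), with no overlap between libraries. With the length of the principal transcript, less the part shared with Syn3, Timp3 came to 6.92% and 11.7%, an alternative chosen after seeing the data, and the order of the genes by mean level was unchanged. These shares are a description and were not tested.

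**Figure D3:**
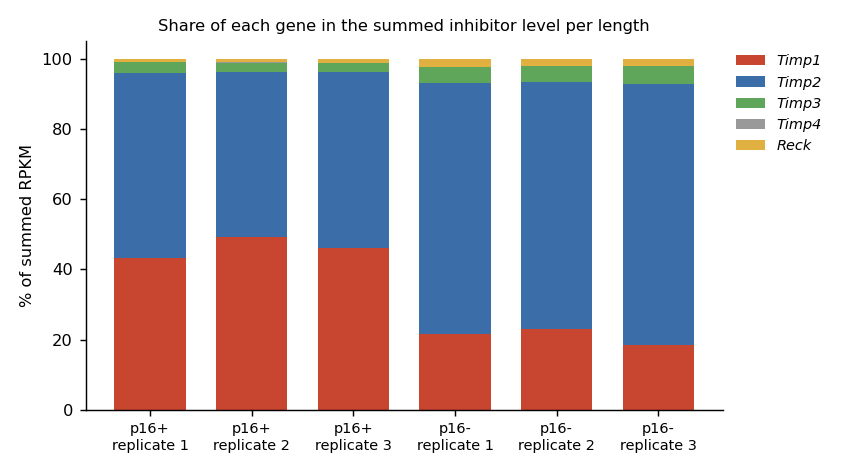
Share of each inhibitor gene in the summed RPKM of the 5 genes (vertical axis, %) for each of the 6 libraries. Timp1 makes up 43.2% to 49.1% of the bar in p16+ and 18.5% to 23.1% in p16-, Timp2 makes up most of the rest, and Timp4 is too low to see.

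The ratio between members shows the same shift within each library. The Timp1 to Timp2 ratio of RPKM was 0.817, 1.04 and 0.921 in p16+ and 0.299, 0.328 and 0.249 in p16-, a 3.18-fold difference. Timp1 to Timp3 was 16.9 ± 1.94 and 4.37 ± 0.722, and Timp1 to Reck 44.9 ± 2.95 and 10.5 ± 1.5. Between the genes that were lower, the Timp3 to Reck ratio overlapped between groups, at 2.51 to 2.91 in p16+ and 2.10 to 2.66 in p16- (exact two-sided permutation p = 0.4). The Timp2 to Timp3 ratio did not, at 18.3 ± 0.245 and 14.9 ± 0.678, so Timp2 was reduced less than Timp3 in these libraries (exact permutation p = 0.1, the smallest the design allows, for each of the 5 of 6 ratios between members that did not overlap, before any adjustment for their number).

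Among the enzymes that these inhibitors act on, 16 of 23 matrix metalloproteinase genes were tested, 9 rose, 0 fell and 7 did not pass by edgeR. Of all genes tested, 8.69% were higher and 8.04% lower. At an unadjusted p under 0.05, 10 were higher and 1 lower, and by DESeq2 9 were higher and 1, Mmp27, lower. The median log2 fold change of the tested members was 0.45, against -0.01 over all genes. The abundant gelatinase gene Mmp2 rose from 3886 ± 147 to 5321 ± 204 CPM (adjusted p = 0.000543) and the membrane protease gene Mmp14 from 1525 ± 70.8 to 2070 ± 111 CPM (adjusted p = 0.000882). Mmp9, a gelatinase restrained by TIMP1 and RECK, rose from 17.1 ± 1.99 to 32.2 ± 3.24 CPM, and the stromelysin gene Mmp10 from 3.07 ± 0.963 to 12.2 ± 3.99 CPM. Mmp19 rose from 169 ± 13.8 to 304 ± 25.4 CPM, and genes on the opposite strand cover 28.3% of its exonic bases. Mmp3 and the collagenase gene Mmp13 had log2 fold changes of 1.28 and 2.20. Of the 7 genes not tested, Mmp7, Mmp20 and Mmp21 had no count in any library, and the most for the others was 10 counts.

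The ADAM proteases, which shed membrane proteins and are targets of TIMP3 and RECK, had 8 of 9 genes tested, of which 1 rose, 1 fell and 6 did not pass (median log2 fold change 0.10), beside 8.69% of all genes higher and 8.04% lower. Adam12, known from fibrotic stroma, rose from 132 ± 24.9 to 261 ± 22.6 CPM (adjusted p = 1.65e-05), and Adam33 fell from 79.4 ± 14.9 to 32.7 ± 2.49 CPM (adjusted p = 1.36e-06). Adam17, the TNF convertase gene, had 161 CPM in p16+ and 164 CPM in p16- (adjusted p = 0.853, log2 fold change -0.03). Adam10 had 100.4 and 95.03 CPM (adjusted p = 0.592, log2 fold change 0.08). Of 19 ADAMTS genes 18 were tested, 10 rose, 1 fell and 7 did not pass, with a median of 0.37, beside the same 8.69% and 8.04%. Adamts7, whose enzyme cleaves COMP, rose from 37.9 ± 7.82 to 88.8 ± 7.42 CPM, Adamts17 from 11.3 ± 3.64 to 25.2 ± 2.09 CPM, the procollagen peptidase gene Adamts3 from 8.17 ± 0.75 to 15.2 ± 2.43 CPM and Adamts6 from 12.1 ± 0.704 to 19.8 ± 2.2 CPM. Of the aggrecanases, Adamts4 rose from 229 ± 14.1 to 312 ± 25.3 CPM (adjusted p = 0.00134), and Adamts5 had 433 ± 25.6 and 424 ± 38.2 CPM in p16+ and p16- (adjusted p = 0.86).

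Set against the inhibitor in the same library, per length, 8 of 10 protease to inhibitor ratios were higher in every p16+ library than in any p16- library, 1 was lower in every one and 1 overlapped. Of single genes 33.1% did not overlap, and no such share was computed for ratios of other genes. Adam17, Adamts5 and Adam10 did not pass the test themselves, so their ratios largely restate the lower level of Timp3 and Reck. The ratio that overlapped was Mmp3 to Timp1, at 1.63, 1.66 and 1.89 in p16+ and 2.16, 1.74 and 1.80 in p16- (exact permutation p = 0.4). Mmp13 to Timp1 was 0.0848 ± 0.0156 in p16+ and 0.0491 ± 0.00667 in p16-, while Mmp9 to Timp1 was the ratio that was lower, at 0.0150 ± 0.000481 and 0.0211 ± 0.00185. For TIMP2 and its partners in proMMP2 activation, Mmp2 to Timp2 was 2.39 ± 0.0658 and 1.47 ± 0.0307, and Mmp14 to Timp2 0.528 ± 0.0483 and 0.326 ± 0.0205.

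For TIMP3, the Adam17 ratio was 0.624 ± 0.0531 in p16+ and 0.435 ± 0.0335 in p16-. The ratio of Adamts5 to Timp3 was 1.12 ± 0.106 and 0.745 ± 0.0573, and that of Adamts4 to Timp3 1.80 ± 0.198 and 0.912 ± 0.147. Mmp14 to Reck had the largest fold difference of the 10, 25.1, 26.0 and 25.6 in p16+ against 11.1, 12.6 and 11.5 in p16-, a 2.19-fold difference, and Adam10 to Reck was 1.51 ± 0.0728 and 0.885 ± 0.0851. The level of Timp3 in these ratios is the lower bound given above. For the 9 ratios without overlap the exact two-sided permutation p was 0.1, the smallest possible. These are ratios of transcripts and do not measure enzyme activity.

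**Figure D4:**
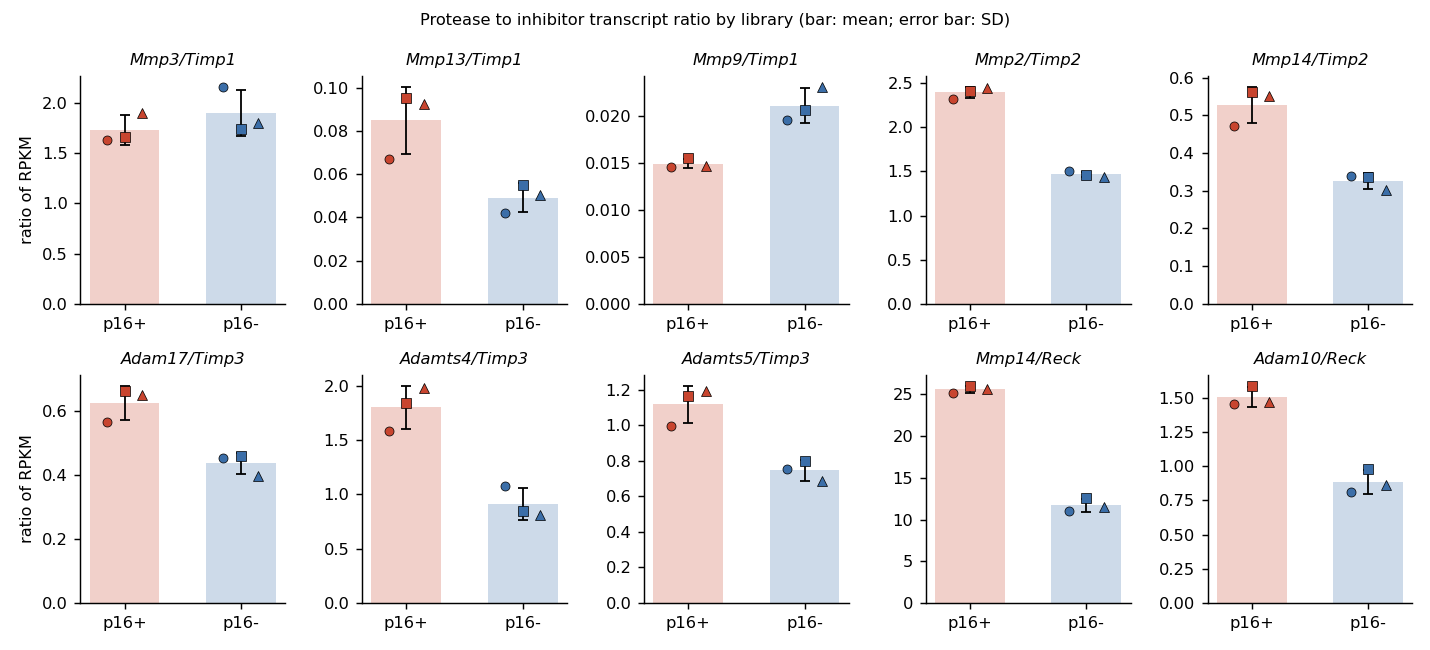
Ratio of the RPKM of a protease gene to that of its inhibitor (linear axes from 0) in the 3 p16+ (red) and 3 p16- (blue) libraries; bars are means and error bars SD. Mmp3 to Timp1 overlaps between groups, Mmp9 to Timp1 is lower in p16+, and the other 8 ratios are higher in p16+ in every library.

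Of 11 genes for proteins that bind TIMPs, 10 were tested, 3 rose, 1 fell and 6 did not pass (median log2 fold change 0.04), where 16.7% of all genes were called in either direction. Cd63, the tetraspanin gene of the TIMP1 receptor, rose from 447 ± 31.5 to 601 ± 15.03 CPM (adjusted p = 0.00108). Cd44 and Cd74 rose from 195.5 to 262 and from 25.01 to 37.2 CPM, and the call of Cd44 was lost without p16+ replicate 2 (adjusted p = 0.0564). Efemp1, which encodes fibulin 3, a matrix protein that binds TIMP3, fell from 649 ± 31.1 to 329 ± 18.9 CPM (adjusted p = 5.33e-07, log2 fold change -0.98). Lrp1, the scavenger receptor gene through which TIMP3 and protease complexes are cleared, named after its values were seen, had 2730 and 2736 CPM (adjusted p = 0.99).

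For RECK in its signalling role, 5 of 7 genes were tested, 2 rose and 1 fell, where 16.7% of all genes were called. Its partner receptor gene Adgra2 rose from 156 ± 20.5 to 201 ± 11.7 CPM (adjusted p = 0.0126), and the Frizzled gene Fzd4 fell from 109.6 ± 12.7 to 72.7 ± 2.32 CPM (adjusted p = 0.00017). Ctnnb1, the beta-catenin gene, rose from 349 ± 18.3 to 436 ± 16.7 CPM (adjusted p = 0.00827), although 15.1% of its exonic bases are shared with other genes. The call of Adgra2 was lost without p16+ replicate 2 (adjusted p = 0.0778) and that of Ctnnb1 without p16+ replicate 3 (adjusted p = 0.0552). The ligand gene Wnt7a had 0 counts in every library, and Wnt7b had at most 1. For counting error alone, 0 counts allow up to 0.0767 to 0.0851 CPM by library, on totals without TMM scaling.

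Of 14 genes for inhibitors of other proteases, 12 were tested, 5 rose, 0 fell and 7 did not pass by edgeR (6 and 0 at an unadjusted p under 0.05, and 5 and 0 by DESeq2), with a median log2 fold change of 0.53. By edgeR 8.69% of all genes tested were higher and 8.04% lower. Serpine2, which encodes the thrombin and urokinase inhibitor nexin 1, rose from 174 ± 8.26 to 414 ± 42.1 CPM, and Serpina3n, a serine protease inhibitor gene, from 246.5 ± 35.8 to 524 ± 68.5 CPM. Slpi, the secretory leukocyte protease inhibitor gene, rose from 2.67 ± 0.672 to 8.19 ± 1.23 CPM. TIMPs share the netrin fold with a group of secreted proteins, and this group went both ways. Of its 16 genes 15 were tested, 4 rose and 4 fell (median 0.12), beside the same 8.69% and 8.04% of all genes. Pcolce2, an enhancer of procollagen processing, fell from 307.5 ± 24.1 to 76.5 ± 15.6 CPM, the complement gene Hc rose from 10.4 ± 2.73 to 36.8 ± 5.88 CPM, and the secreted Frizzled-related genes Sfrp1 and Sfrp2 had log2 fold changes of 0.78 and 1.12. Another gene covers 16.1% of the exonic bases of Sfrp2.

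Of 19 genes known to regulate TIMP transcription, all were tested, 4 rose, 3 fell and 12 did not pass, with a median log2 fold change of -0.13, beside 8.69% of all genes higher and 8.04% lower. The Runt factor genes Runx1 and Runx2 rose from 53.4 ± 11.3 to 107.7 ± 18.8 and from 22.7 ± 2.85 to 43.7 ± 5.3 CPM, and the call of Runx1 was lost without p16- replicate 1 (adjusted p = 0.0822). The growth factor gene Tgfb1 rose from 24.0 ± 2.18 to 35.7 ± 2.45 CPM and Ets1 from 34.6 ± 2.41 to 48.4 ± 2.27 CPM. The genes that fell were Ets2, Junb and Jund (log2 fold changes -0.44, -0.36 and -0.35), and a gene on the opposite strand covers 52.6% of the exonic bases of Jund. Junb and Jund were named after their values were seen, as was Ets2. Leaving out p16+ replicate 2 or p16+ replicate 3 left 1 that fell, Ets2, while scaling by library size alone gave 6. The AP-1 genes Fos and Jun, named after their values were seen, had 4716 and 5305, and 2353 and 2579 CPM in p16+ and p16- (adjusted p = 0.184 and 0.32).

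**Figure D5:**
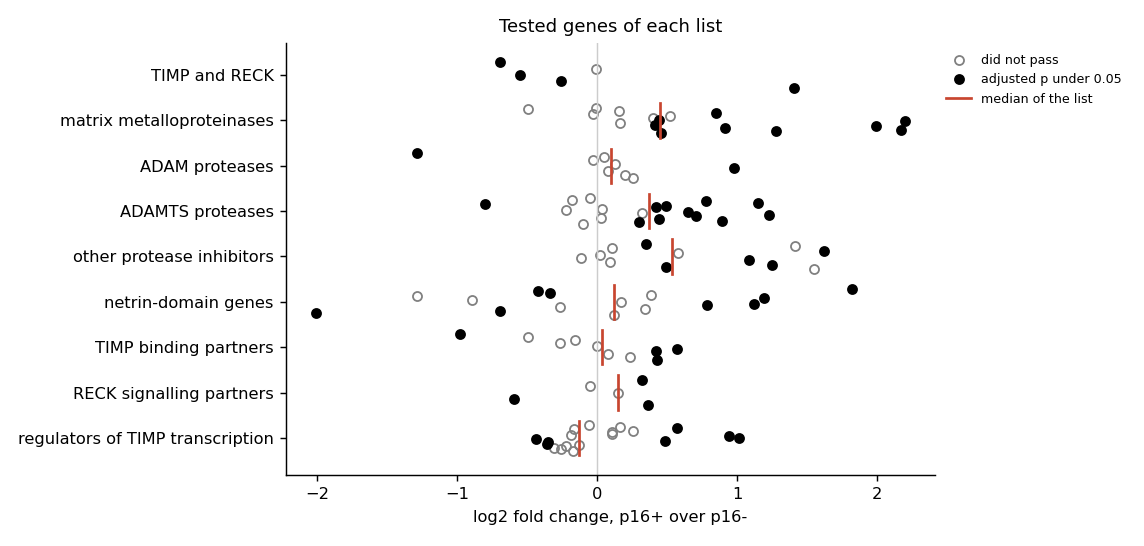
Log2 fold change of p16+ over p16- for each tested gene of the 5 inhibitors and of 8 related lists; filled points passed an adjusted p of 0.05, open points did not, and red lines mark the medians of the 8 lists. Medians run from -0.13 for the transcriptional regulators to 0.53 for the other protease inhibitors, beside -0.01 over all genes.

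Some markers of other cell types also differed between the groups, where 8.69% of all genes tested were higher and 8.04% lower in p16+. The sort took CD45- and CD31- cells, which should remove leukocytes and endothelial cells. Yet the CD45 gene Ptprc was at 7.77 and 4.89 CPM and the CD31 gene Pecam1 at 6.73 and 3.34 CPM in p16+ and p16-. Ptprc did not pass (adjusted p = 0.0602 by edgeR), and its groups overlapped. The summed level of 7 pericyte and smooth muscle markers was 1854 to 1908 CPM in p16+ and 1166 to 1486 CPM in p16-, and 6 passed, each higher. That of 8 macrophage and leukocyte markers was 220.1 to 253 and 156 to 176 CPM, with 3 of 7 tested higher. The 4 Schwann cell markers summed to 24.4 to 33.2 CPM in p16+ and 45.7 to 82.4 CPM in p16-, and 3 were lower. The 7 endothelial markers summed to 67.5 to 94.8 and 173 to 206 CPM, with Pecam1, Emcn and Vwf higher and Tek, which made up most of the p16- sum at 168 CPM, lower. The 4 satellite cell markers summed to 12.3 to 17.9 and 6.37 to 10.3 CPM, with Pax7 and Cdh15 higher, and 4 muscle fibre markers summed to 12.8 to 23.8 and 13.1 to 20.2 CPM, with 0 called by edgeR, 0 at an unadjusted p under 0.05 and 0 by DESeq2. The 4 adipocyte markers stayed at 0.234 to 1.51 and 0.656 to 5.06 CPM, with 0 of 2 tested called by edgeR, 2 lower at an unadjusted p under 0.05 and 1 lower by DESeq2. The 7 fibroblast markers summed to 52370 to 53370 CPM in p16+ and 35930 to 38740 CPM in p16-, with 3 higher and 2 lower. Most of each sum was the collagen gene Col1a1, whose mean rose from 20414 to 37831 CPM. Lum and Thy1 were also higher, Ly6a and Dpt were lower, and Pdgfra and Dcn did not pass. The median log2 fold change of the 7 markers was -0.149, so the larger sum does not show a general rise of fibroblast markers. With 1 library left out, the calls of Pecam1, Vwf, Pax7 and Cdh15 were each lost at least once. That of Thy1 (adjusted p = 0.0459 with all libraries) was kept only without p16- replicate 2 (adjusted p = 0.0164 by edgeR). No defining marker of these lists was at 0 in all 6 libraries, and their part in the differences of the inhibitor genes was not tested.

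The genes whose profile over the 6 libraries was nearest to each inhibitor were found by the root mean square difference of log2 CPM after centring, among named genes with a mean log2 CPM of at least 2 (10509 for each inhibitor, itself left out, and 10510 for Timp4, which lies below that level). Nearest to Timp1 were the glypican gene Gpc1 (0.0488), the cationic amino acid transporter gene Slc7a2 (0.067) and the annexin gene Anxa8 (0.0694). For Timp2 they were the aminopeptidase gene Anpep (0.0199), Magt1 and Epc2, and for Timp3 Stat5b (0.0275), the growth factor gene Tgfb2 (0.0299) and the basement membrane gene Nid1 (0.0389). Reck had Osbpl1a (0.0455), Mettl7a1 and Lurap1l. The measure includes the difference between groups, so a similar fold change is fixed by the choice. For Timp4, whose profile is set by 16 to 32 counts a library, the nearest were Mettl26, Kti12 and Reln, at distances of 0.0715 to 0.137.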

How the data were processed

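Whole-number fragment counts per gene were deposited for 6 libraries. The authors made these counts with featureCounts 1.6.0 on exons of GENCODE vM21, read pairs as fragments and without a strand option, per the file headers. STAR 2.7.3a, bcl2fastq and GRCm38.p6 are named in the submitters' processing notes. All 55536 identifiers matched the start and end of a vM21 gene, from which symbols were taken. From the counts, filterByExpr at its defaults left 15903 genes (99.918% to 99.932% of counts), followed by TMM factors and edgeR 4.0.16 (glmQLFit, robust, glmQLFTest, group alone, R 4.3.3), with Benjamini-Hochberg adjustment over all genes tested. CPM and RPKM used the scaled library sizes, and log2 CPM a prior count of 2. Standard errors were derived from the F statistic, and 95% intervals from its degrees of freedom. Permutation tests used SciPy 1.17.1. Replicates of a group differed by more than sampling noise. Promoter sequences are from RefSeq (GRCm38.p6), where all 5 genes matched.

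The genes and lists were chosen with earlier results of these data known. Named genes are the 5 inhibitors, Cdkn2a, genes overlapping them, up to 4 members with the smallest p among those called in each list, both genes of each ratio, and the 3 nearest profiles; others are marked where named, and 1 gene that the rule names is not reported here. Alternatives were other factors (RLE, upper-quartile, none), no filter, a stricter filter (CPM of at least 1 in 3 libraries), DESeq2 1.42.0, a replicate block and leaving out each library. Intervals and floors cover counting error and the spread between these libraries only.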

Additional observations from a re-analysis of the deposited data

How the results depend on the processing

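Timp1, Timp3 and Reck kept their direction and their call under all 13 alternatives run for each, with log2 fold changes of 1.33 to 1.52, -0.63 to -0.48 and -0.77 to -0.66. Timp2 kept its direction in all 13 and its call in the 7 that used every library (adjusted p = 0.00544 to 0.0446), but with 1 library left out the value ran from -0.30 to -0.22 and passed in 1 of 6. Timp4 was not called in any of 12 and was not tested under the stricter filter. With library sizes alone the median of all genes moved from -0.01 to -0.08, and 36.0% of the genes called were higher in p16+ in place of 52.0%. Among listed genes that setting called 1 matrix metalloproteinase (Mmp27), 2 ADAMTS genes, 3 TIMP binding partners and 6 transcriptional regulators lower. Mmp27 made the number of metalloproteinases called lower 1 also without the filter, with the stricter filter and with DESeq2, and without the filter 2 TIMP binding partners were lower. With 1 library left out, 0 to 1 metalloproteinases were lower, 1 to 2 ADAM genes higher, 1 to 2 TIMP binding partners lower, 1 to 2 RECK partners higher and 1 to 4 regulators lower. Among listed genes named above as higher, calls were lost in at least 1 of these 6 fits for Cd44, Runx1, Adgra2 and Ctnnb1. The same held for the markers Pecam1, Vwf, Pax7, Cdh15 and Thy1. Of the genes named as lower, Junb and Jund lost their call, besides Timp2 and Syn3.

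The labels number replicates 1 to 3 in both groups. Deviations of same-numbered libraries from their group means correlated at 0.0284, 0.0821 and -0.0046. Libraries of different number correlated at -0.069 to 0.0394. The labels do not state whether libraries are paired, and these correlations from 3 libraries per group cannot show that pairing is absent. With the replicate block 1605 genes were higher and 1509 lower, in place of 1382 and 1278. The block gave log2 fold changes of 1.41, -0.25, -0.55, 0.04 and -0.69 for Timp1, Timp2, Timp3, Timp4 and Reck, with the same calls. It called 2 ADAM genes higher, and 2 ADAMTS genes and 2 TIMP binding partners lower. Not every library correlated best with the one of its own number.

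The length used moved the share of Timp3 in the summed level to 4.50% and 7.76% in p16+ and p16- with the principal transcript.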
